A study of Mus musculus with 8 samples.

Results

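The hypoxia-inducible factor (HIF) subunits and the enzymes that sense oxygen for them were examined as 9 genes: *Hif1a*, *Epas1*, *Hif3a* and *Arnt* for the subunits, *Egln1*, *Egln2*, *Egln3* and *Hif1an* for the hydroxylases, and *Vhl*. They were chosen by name, with earlier results of these data known, from 19938 genes that a probe set with 1 gene symbol stood for. Each of the 9 had 1 such probe set among the 28853 on the Affymetrix Mouse Gene 1.0 ST array, which reads each gene with a set of short probes spread over its exons. RNA came from the inferior and the superior retina, separated at dissection, of C57BL/6J mice, a pigmented inbred strain, all raised in dim cyclic light. In the hyperoxia inferior and hyperoxia superior groups the mice had breathed 75% oxygen for 14 days, starting at an age of 83 to 90 days. In the control inferior and control superior groups the mice were killed at the same age without that exposure. Each group had 2 arrays, and each array held the pooled RNA of 2 animals, 1 male and 1 female. The study compared the regions because the inferior retina is the more vulnerable to hyperoxia. All values below are log2 signals as deposited or differences between them, and differences were tested with limma over all 8 arrays and called at an adjusted p under 0.05 (Benjamini-Hochberg, all probe sets).

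HIF is a transcription factor of an alpha and a beta subunit that switches on genes for glycolysis, vessel growth and survival when oxygen is short. While oxygen is plentiful, prolyl hydroxylases of the EGLN family, which use oxygen and 2-oxoglutarate, mark the alpha subunit, the VHL protein binds the mark, and a ubiquitin ligase sends the subunit to the proteasome. HIF1AN, an asparaginyl hydroxylase also called FIH, blocks the contact of the alpha subunit with its coactivators. The retina is among the tissues with the highest oxygen use, and *Egln1* and *Egln3* are themselves known HIF targets in many cell types. The arrays measured RNA only, so the amount, hydroxylation and binding of the proteins were not seen.

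A HIF dimer binds DNA at a short core that reads ACGTG or GCGTG. The windows that follow run from 250 bases before to 50 bases after the annotated start, and are shown for the hydroxylase genes with the lowest values after hyperoxia relative to control (*Egln1* and *Egln3*) and for other oxygen-dependent dioxygenase genes that passed the test (*Kdm3a* and *P4ha1*). They were taken from RefSeq on GRCm38.p6 and run 5′ to 3′ on the gene's strand, with matches to the core on either strand in capitals. The *Egln1* window is chr8:124949205-124949504 (minus strand), the *Egln3* window chr12:54203825-54204124 (minus strand), the *Kdm3a* window chr6:71632868-71633167 (minus strand, the first of its 3 annotated starts) and the *P4ha1* window chr10:59323046-59323345 (plus strand).
Egln1: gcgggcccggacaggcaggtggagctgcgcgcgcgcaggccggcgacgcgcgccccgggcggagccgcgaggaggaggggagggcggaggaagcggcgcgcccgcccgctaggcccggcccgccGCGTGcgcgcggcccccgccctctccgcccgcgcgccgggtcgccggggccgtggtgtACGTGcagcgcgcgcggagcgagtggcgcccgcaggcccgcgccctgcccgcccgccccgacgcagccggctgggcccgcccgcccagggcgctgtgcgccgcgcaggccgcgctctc
Egln3: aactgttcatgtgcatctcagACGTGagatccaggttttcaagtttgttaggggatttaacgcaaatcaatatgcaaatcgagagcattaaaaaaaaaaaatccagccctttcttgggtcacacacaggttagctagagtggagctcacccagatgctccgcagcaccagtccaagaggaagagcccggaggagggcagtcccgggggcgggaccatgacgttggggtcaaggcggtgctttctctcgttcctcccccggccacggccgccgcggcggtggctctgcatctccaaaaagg
Kdm3a: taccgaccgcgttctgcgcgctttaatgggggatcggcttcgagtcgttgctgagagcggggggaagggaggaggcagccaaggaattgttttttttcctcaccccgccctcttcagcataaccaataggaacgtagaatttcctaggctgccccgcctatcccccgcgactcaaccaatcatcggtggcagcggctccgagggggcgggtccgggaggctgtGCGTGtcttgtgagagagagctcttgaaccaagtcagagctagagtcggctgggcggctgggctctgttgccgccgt
P4ha1: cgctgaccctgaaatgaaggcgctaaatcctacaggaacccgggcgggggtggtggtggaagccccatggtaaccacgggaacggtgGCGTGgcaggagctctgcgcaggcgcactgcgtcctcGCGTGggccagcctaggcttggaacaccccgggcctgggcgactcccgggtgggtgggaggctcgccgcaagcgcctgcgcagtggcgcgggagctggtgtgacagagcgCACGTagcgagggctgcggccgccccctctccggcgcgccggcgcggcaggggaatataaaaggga

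The *Egln1* window held GCGTG 126 bases and ACGTG 68 bases before the start. The *Egln3* window held ACGTG 229 bases before it, and the *Kdm3a* window shown held GCGTG 27 bases before it. The windows at the other *Kdm3a* starts held no match. The *P4ha1* window held 3 matches, the nearest 16 bases before the start on the opposite strand. A window was listed for 8 of the 9 genes, without *Epas1*. Of their 9 windows, *Egln2* having a pair, 7 (77.8%) held a match, and those of *Hif1an* and *Vhl* held none of these letters. The most matches, 6, were in a window of *Egln2*, and its other window held 1. The *Hif1a* window held 3. Of all 32851 windows of this length, 14380 (43.8%) held one. Where ACGTG follows C, the same place reads as a match on both strands and was counted on each. A match is a run of letters and not a measured binding site.

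Across the arrays the median log2 signal lay between 6.98 and 7.05, and retinal markers were present on all of them, with a log2 summed level of 16.13 to 16.41 for rods and 14.49 to 14.80 for Müller glia. Rod markers were lower after hyperoxia in the inferior retina, 9 of 10 of them (0 called, 3 at an unadjusted p under 0.05), with a log2 summed level of 16.31 and 16.13 in the hyperoxia inferior group, against 16.33 and 16.34 in the control inferior group. The lowest level was that of hyperoxia inferior replicate 2, on which *Egln1* was also lowest. In the superior retina the log2 summed level of rods was 16.39 and 16.36 after hyperoxia, against 16.33 and 16.41 in control. There 5 of the 10 rod markers were higher and 5 lower (0 called). The dorsal transcription factor *Tbx5* averaged 5.04 in the hyperoxia inferior and 6.35 in the hyperoxia superior group, and 5.34 in the control inferior and 6.40 in the control superior group. The ventral factor *Vax2* averaged 9.66 in the hyperoxia inferior and 8.24 in the hyperoxia superior group, and 9.61 in the control inferior and 8.73 in the control superior group, so both followed the labels. Control inferior replicate 2 stood apart in lens genes, with a log2 summed level of 15.49 over 13 of them, against 10.16 to 11.67 on the other arrays. Markers of microglia and macrophages moved with the exposure. All 14 measured were higher after hyperoxia over both regions, and 9 were called, against 0.568% of all probe sets in either direction. Their log2 summed level was 11.76 and 11.92 in the hyperoxia inferior group and 10.88 and 10.84 in the hyperoxia superior group. It was 10.43 and 10.52 in the control inferior group and 10.43 and 10.38 in the control superior group. Of 12 markers of the retinal pigment epithelium, 11 were higher after hyperoxia in the superior retina (0 called). At an unadjusted p under 0.05 by limma 9 of them were higher, against 5.59% of all probe sets in either direction. Their log2 summed level was 13.62 and 13.75 in the hyperoxia superior group, against 12.52 and 13.20 in the control superior group. In the inferior retina 4 of these 12 markers were higher after hyperoxia and 8 lower (0 called, 1 lower at an unadjusted p under 0.05). Their log2 summed level was 13.54 and 13.52 in the hyperoxia inferior group, against 12.95 and 13.65 in the control inferior group. The part of these cell types in the results below was not tested. In tissue RNA of this kind, fewer cells of a type and less RNA per cell cannot be told apart. Inferior and superior arrays may hold retina of the same animals, since each retina was divided, and the tests over both regions count all arrays as independent. No label says that same-group samples came from separate cohorts, so the p-values reflect the spread among these pooled samples alone, and precision is limited by the 2 arrays in each group.

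*Egln1*, which encodes the main prolyl hydroxylase of HIF alpha subunits (PHD2), was lower after hyperoxia in both regions and was the only one of the 9 genes past the test. Its log2 signal was 9.08 and 8.82 in the hyperoxia inferior group, against 9.46 and 9.56 in the control inferior group. It was 8.996 and 8.961 in the hyperoxia superior group, against 9.44 and 9.58 in the control superior group. All 4 hyperoxia arrays lay below all 4 control arrays. Over both regions *Egln1* fell by 0.55 on the log2 scale (SE 0.078, 95% interval -0.72 to -0.37), which is a fold of 0.685 (0.606 to 0.775), with an unadjusted p of 8.48e-05 and an adjusted p of 0.0227. Its absolute difference exceeded that of 99.4% of all probe sets. Of the 9 genes, 1 was called lower and 0 higher. Of all probe sets 0.568% were called in this comparison in either direction and 0.121% were called lower. Groups that do not overlap, here 4 arrays against 4, were found for *Egln1* alone among the 9, and for 5.49% of all probe sets.

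The regions gave nearly the same value for *Egln1*. The difference was -0.56 (SE 0.11) in the inferior retina, with an adjusted p of 0.0922, and -0.53 (SE 0.11) in the superior retina, with an adjusted p of 0.448. Neither passed alone. The difference between the changes was -0.02, with a 95% interval of -0.38 to 0.33 and an adjusted p of 0.991. Regional differences within that interval are not excluded. The test can miss larger ones, since that of *Egln3*, -0.49, did not pass either (adjusted p = 0.707). In order of level, control superior (9.51 ± 0.10, SD, n = 2) and control inferior (9.51 ± 0.07) overlapped, hyperoxia superior (8.98 ± 0.02) lay below both, and hyperoxia inferior (8.95 ± 0.18) overlapped it. The size of the fall was steady but the call was not. With 1 array left out the difference over both regions ran from -0.61 to -0.48. Omission of hyperoxia inferior replicate 2 gave an adjusted p of 0.0789, of hyperoxia superior replicate 1 one of 0.113, of hyperoxia superior replicate 2 one of 0.117, of control inferior replicate 2 one of 0.0624, of control superior replicate 1 one of 0.0737 and of control superior replicate 2 one of 0.12. The adjusted p stayed under the threshold when hyperoxia inferior replicate 1 (0.03) or control inferior replicate 1 (0.0428) was omitted. By the methods' t-test, an unmoderated contrast, the adjusted p was 0.284.

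**Figure D1:**
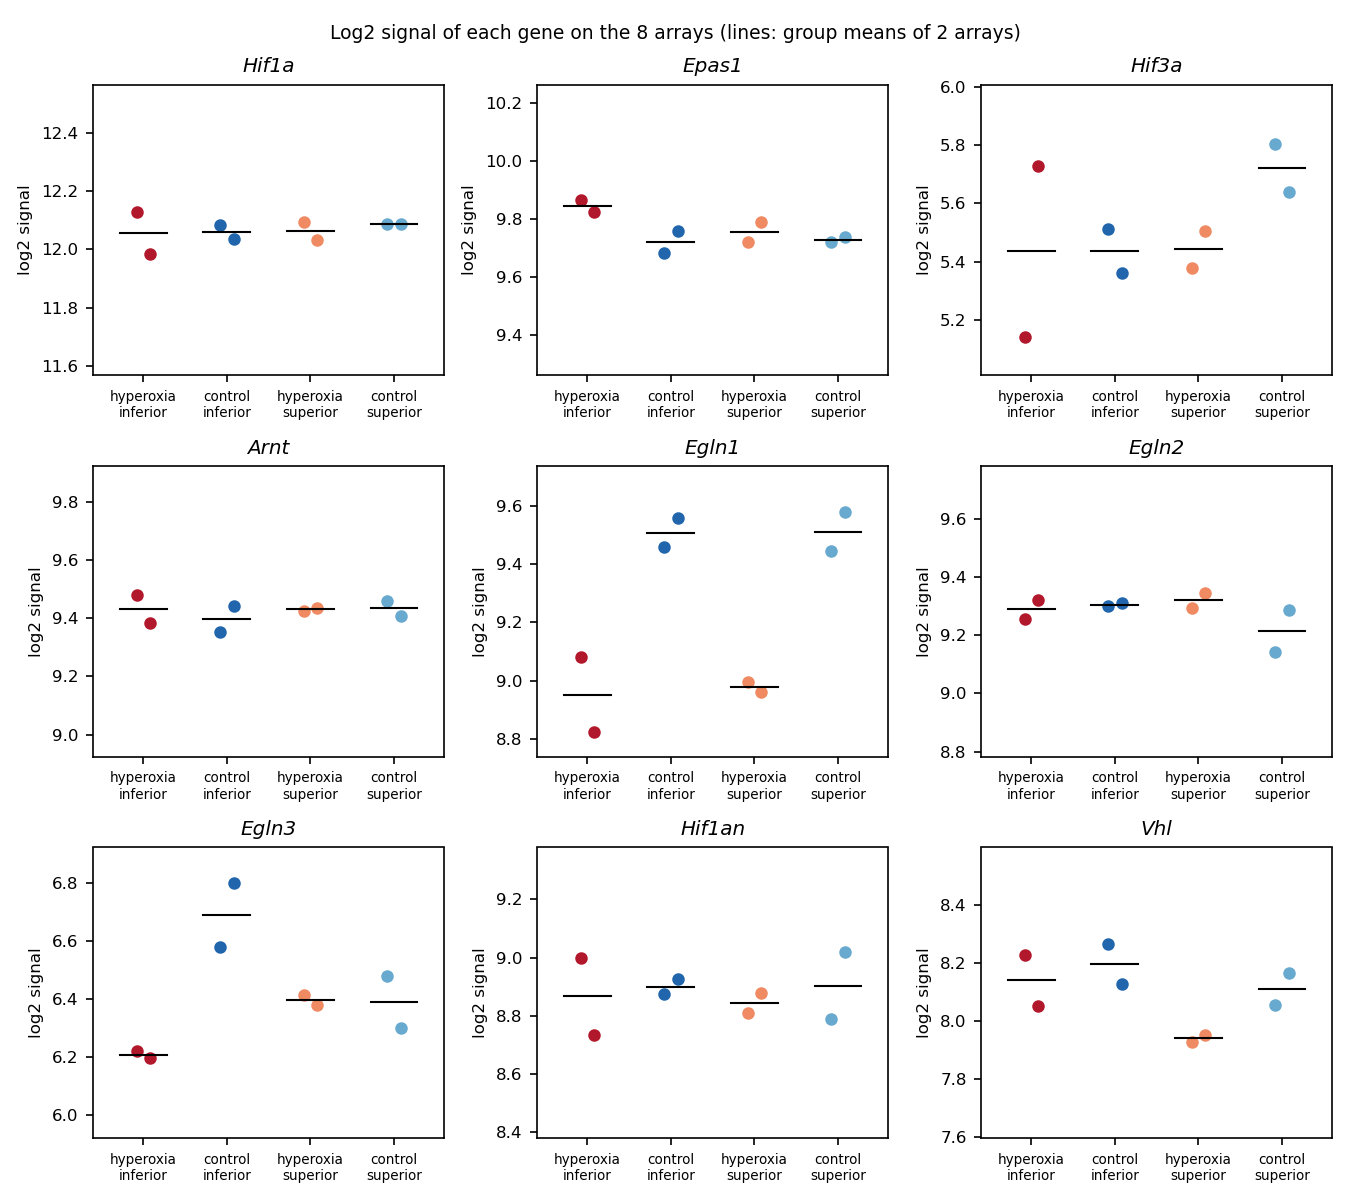
Log2 signal (vertical axis, 1 panel per gene with its own range) of the 9 genes on each array, with hyperoxia left of control in each region and lines at the means of 2 arrays. The 4 hyperoxia points of *Egln1* lie between 8.82 and 9.08, below its control points at 9.44 to 9.58, and *Egln3* is highest in the control inferior group.

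*Egln3* (PHD3), a prolyl hydroxylase whose gene is strongly induced by hypoxia in many cell types, was low in the hyperoxia inferior group and high in the control inferior group, and did not pass the test. Its log2 signal was 6.22 and 6.20 in the hyperoxia inferior group, against 6.58 and 6.80 in the control inferior group. In the superior retina it was 6.41 and 6.38 after hyperoxia, against 6.48 and 6.30 in control. The inferior groups did not overlap and the superior ones did. All 8 values lay below the array medians, and the deposited table holds no detection call. The difference in the inferior retina was -0.48 (SE 0.106, 95% interval -0.72 to -0.24), with an unadjusted p of 0.00164 and an adjusted p of 0.135. In the superior retina it was 0.01 (-0.24 to 0.25, adjusted p = 0.997). Over both regions it was -0.24, with an adjusted p of 0.365.

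The regional order of *Egln3* differed between the conditions on these arrays, without passing the test. The inferior value minus the superior was -0.19 after hyperoxia (adjusted p = 0.68) and 0.30 in control (adjusted p = 0.916), and in each condition the 2 inferior arrays lay on 1 side of the superior arrays. The difference between these was -0.49 (SE 0.15, 95% interval -0.83 to -0.15), with an unadjusted p of 0.0108 and an adjusted p of 0.707. Arrays that part in opposite directions in this way were found for 5.92% of all probe sets. Without control inferior replicate 2, which stood apart in lens genes, the inferior difference of *Egln3* was -0.37 (adjusted p = 0.28), and with replicate 1 of that group omitted instead it was -0.59 (adjusted p = 0.134). Over the 8 arrays *Egln3* and *Egln1* had a Pearson r of 0.626, a description over arrays that share their groups.

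*Egln2* (PHD1), the prolyl hydroxylase least tied to hypoxia in its expression, differed little. The *Egln2* log2 signal was 9.26 and 9.32 in the hyperoxia inferior group, against 9.30 and 9.31 in the control inferior group. It was 9.29 and 9.35 in the hyperoxia superior group, against 9.14 and 9.29 in the control superior group. The groups overlapped in the inferior retina, and in the superior retina the lower hyperoxia array lay just above the higher control array. The difference over both regions was 0.05, with a 95% interval of -0.10 to 0.19. The interval of *Egln2* did not meet that of *Egln1*, -0.72 to -0.37, but the difference between the genes was not tested.

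*Hif1an*, the asparaginyl hydroxylase gene, had log2 signals of 8.999 and 8.734 in the hyperoxia inferior group, against 8.87 and 8.93 in the control inferior group. It had 8.81 and 8.88 in the hyperoxia superior group, against 8.79 and 9.02 in the control superior group. All groups overlapped. The difference over both regions was -0.05 (95% interval -0.24 to 0.14).

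Among the alpha subunits, *Hif1a* had the smallest range of group means, 0.03. It read 12.13 and 11.98 in the hyperoxia inferior group, against 12.08 and 12.04 in the control inferior group. It was 12.09 and 12.03 in the hyperoxia superior group, against 12.09 and 12.09 in the control superior group. The hyperoxia arrays overlapped the control arrays in both regions. Over both regions the fold was 0.990 and the log2 difference was -0.01, with a 95% interval of -0.16 to 0.13. The study, too, reported no significant change of *Hif1a* on its arrays. By qPCR it reported a rise of *Hif1a* after hyperoxia, without a difference between the regions. It reported a similar qPCR rise for the cone opsin gene *Opn1mw*, which it had picked as not regulated by hyperoxia. The arrays did not show that rise of *Hif1a*. The study cited earlier work in which the rise of *Hif1a* was prominent earlier in the exposure but not at 14 days.

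*Epas1*, which encodes HIF-2alpha and is known for its expression in endothelial cells and some glia, had its highest values in the hyperoxia inferior group. These were 9.87 and 9.83, against 9.68 and 9.76 in the control inferior group, and did not overlap. In the superior retina they were 9.72 and 9.79 after hyperoxia, against 9.72 and 9.74 in control. The difference was 0.12 in the inferior retina (adjusted p = 0.702) and 0.03 in the superior retina (adjusted p = 0.988), and 0.08 over both (95% interval -0.06 to 0.21, adjusted p = 0.758). The log2 summed level of endothelial markers ran from 11.23 to 11.52 over the arrays.

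*Hif3a*, whose splice forms include inhibitors of the other alpha subunits, was the dimmest of the 9 on its own probes, with all values below the array medians, and the one whose replicates were farthest apart. It read 5.14 and 5.73 in the hyperoxia inferior group, against 5.51 and 5.36 in the control inferior group. It was 5.38 and 5.51 in the hyperoxia superior group, against 5.80 and 5.64 in the control superior group. The control superior arrays lay above those of the other groups except for hyperoxia inferior replicate 2, which lay between them. The superior difference was -0.28, with an adjusted p of 0.908. Over both regions the difference was -0.14 (95% interval -0.42 to 0.14), and it was 0.0077 when hyperoxia inferior replicate 1 was omitted and -0.29 when replicate 2 of that group was. *Arnt*, the shared beta subunit, had 9.48 and 9.38 in the hyperoxia inferior group, against 9.35 and 9.44 in the control inferior group. In the superior retina it had 9.43 and 9.43 after hyperoxia, against 9.46 and 9.41 in control. The *Arnt* groups overlapped in both regions, and the difference over both was 0.01 (-0.13 to 0.15).

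*Vhl*, the part of the ubiquitin ligase that recognises hydroxylated HIF alpha, was lowest in the hyperoxia superior group. The *Vhl* log2 signal was 8.23 and 8.05 in the hyperoxia inferior group, against 8.27 and 8.13 in the control inferior group. It was 7.93 and 7.95 in the hyperoxia superior group, against 8.06 and 8.16 in the control superior group. The hyperoxia superior arrays lay below the other 6. The superior difference was -0.17 (95% interval -0.40 to 0.06, adjusted p = 0.906) and the difference over both regions was -0.11 (-0.27 to 0.05, adjusted p = 0.696).

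**Figure D2:**
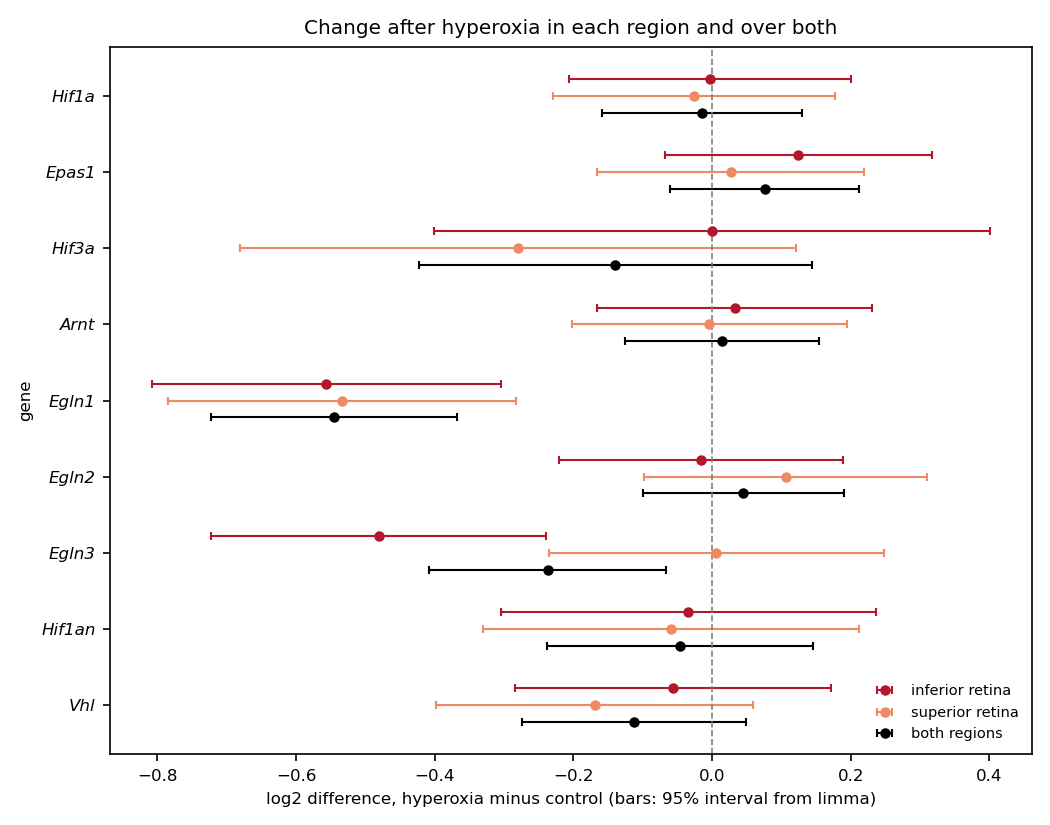
Log2 difference, hyperoxia minus control (horizontal axis), of the 9 genes in the inferior retina, the superior retina and both regions, with 95% intervals from limma over 8 arrays. The interval of *Egln1* over both regions ends at -0.37, and those of *Egln3* leave 0 in the inferior retina and over both regions but not in the superior retina.

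Counted over the 9 genes, no gene was called in either region taken alone. Of all probe sets, 0.492% were called in the inferior retina and 0.0173% in the superior. At an unadjusted p under 0.05, 2 of the 9 were lower in the inferior retina (*Egln1* and *Egln3*), 1 in the superior retina (*Egln1*) and 2 over both regions, and 0 were higher. Such p-values were reached by 9.39% of all probe sets in the inferior retina, 5.59% in the superior retina and 8.98% over both regions. The signs were 3 higher and 6 lower in each of the comparisons. The median log2 difference of the 9 was -0.05 over both regions, and that of all probe sets was 0.00. In the inferior retina 3 of the 9 did not overlap between the exposures, against 38.7% of all probe sets, and in the superior retina 4 did not, against 35.9%, so groups of 2 arrays part often.

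Between the regions, 0 of the 9 genes were called. That held within hyperoxia, where 0.139% of all probe sets were called, within control (0%) and over both conditions (0.0173%). At an unadjusted p under 0.05 the counts were 0 of 9 within hyperoxia, 1 within control (*Egln3*, higher in the inferior retina) and 0 over both conditions, with 8.5%, 5.3% and 7.87% of all probe sets. None of the 9 parted all inferior from all superior arrays, as 3.54% of all probe sets did. *Vhl* came nearest, at a difference of 0.14 over both conditions (unadjusted p = 0.0746, adjusted p = 0.672). For the difference of the hyperoxia changes between the regions 0 of the 9 were called, with 0.00347% of all probe sets, and 1 (*Egln3*) had an unadjusted p under 0.05, with 6.04% of all probe sets.

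The rest of the degradation pathway held no called gene. Of 25 measured genes that tag, stabilise or degrade HIF alpha or form the VHL ligase with its elongins and cullin, 0 passed the test in any comparison, and their median difference over both regions was -0.01, with 2 higher and 1 lower at an unadjusted p under 0.05. The cullin *Cul2* had -0.07, and the elongins *Elob* and *Eloc* had 0.09 and 0.00. The 2 with the smallest p were *Sat1*, a polyamine acetyltransferase reported to aid HIF degradation, at 0.47 (adjusted p = 0.126), and *Usp33*, a deubiquitinase that binds VHL, at -0.22 (adjusted p = 0.449). *Sat1* had log2 signals of 9.89 and 10.25 in the hyperoxia inferior group, against 9.40 and 9.55 in the control inferior group, and 9.67 and 9.89 in the hyperoxia superior group, against 9.35 and 9.54 in the control superior group. Of 23 partners and coregulators, 0 passed in any comparison and the median was -0.01, with 1 higher and 1 lower at an unadjusted p under 0.05. Over both regions 8.98% of all probe sets had such a p in either direction. The smallest p-values there belonged to *Cited1*, a transcription coregulator that competes for the same coactivators, at 0.36 (adjusted p = 0.111), and *Pkm*, the pyruvate kinase gene, at -0.18 (adjusted p = 0.457). *Arnt2*, the neural beta subunit, had 0.01, and the coactivator genes *Ep300* and *Crebbp* had -0.06 and -0.01.

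Of 13 other measured transcription factors of the same bHLH-PAS family, 1 rose and 0 fell over both regions, where 0.568% of all probe sets were called. The gene that rose was *Ahr*, the aryl hydrocarbon receptor, a ligand-activated factor that also pairs with ARNT. Its log2 signal was 9.85 and 9.61 in the hyperoxia inferior group, against 9.07 and 8.99 in the control inferior group, and 9.32 and 9.22 in the hyperoxia superior group, against 9.09 and 9.05 in the control superior group. All hyperoxia arrays lay above all control arrays. It rose by 0.70 in the inferior retina (adjusted p = 0.0334) and by 0.45 over both regions (adjusted p = 0.0449), and the superior difference was 0.20 (adjusted p = 0.906). The call over both regions was lost with any 1 of the 8 arrays left out, at adjusted p-values of 0.0633 to 0.19, and with each array centred on its median, at 0.0657. In the inferior retina it was lost likewise, at 0.0521 to 0.132. *Ahr* is also expressed in macrophages and microglia, whose markers were higher on the same arrays, and their part in its rise was not tested.

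Other dioxygenases that use oxygen include the collagen prolyl hydroxylases, the jumonji histone demethylases, the TET enzymes and the thiol oxidase ADO. Of 38 measured, 2 fell and 0 rose over both regions, against 0.121% of all probe sets called lower. Of the 38, 30 had a difference below 0, with a median of -0.10 against 0.00 for all probe sets. This list, like the other gene lists, was chosen with earlier results of these data known, so its counts are a description. *P4ha1*, the catalytic subunit of collagen prolyl hydroxylase, had log2 signals of 8.81 and 8.65 in the hyperoxia inferior group, against 9.54 and 9.73 in the control inferior group. It had 8.98 and 9.05 in the hyperoxia superior group, against 9.40 and 9.52 in the control superior group. *P4ha1* fell by 0.67 over both regions (SE 0.0754, adjusted p = 0.00787) and by 0.90 in the inferior retina (adjusted p = 0.0106), and the superior difference was -0.45 (adjusted p = 0.543). Its call over both regions was lost without hyperoxia superior replicate 1 (adjusted p = 0.0537) or control superior replicate 2 (0.0533). Its inferior call was lost without hyperoxia inferior replicate 2 or control inferior replicate 2, with adjusted p-values up to 0.114.

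*Kdm3a*, a histone demethylase gene known as a HIF target, followed *Egln1* closely. Its log2 signal was 8.81 and 8.80 in the hyperoxia inferior group, against 9.27 and 9.31 in the control inferior group, and 8.89 and 8.90 in the hyperoxia superior group, against 9.28 and 9.43 in the control superior group. Hyperoxia and control arrays did not overlap. *Kdm3a* fell by 0.47 over both regions (SE 0.0625, adjusted p = 0.0167). The difference was -0.49 in the inferior retina (adjusted p = 0.0709) and -0.45 in the superior retina (adjusted p = 0.445). The *Kdm3a* call was lost when the omitted array was hyperoxia inferior replicate 1 (0.0645), hyperoxia inferior replicate 2 (0.0789), hyperoxia superior replicate 1 (0.0964), hyperoxia superior replicate 2 (0.0928) or control superior replicate 2 (0.0834). *Ado*, the thiol oxidase, had 0.06 over both regions and *Kdm6a*, a demethylase reported to sense oxygen, had -0.22 (adjusted p = 0.579).

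**Figure D3:**
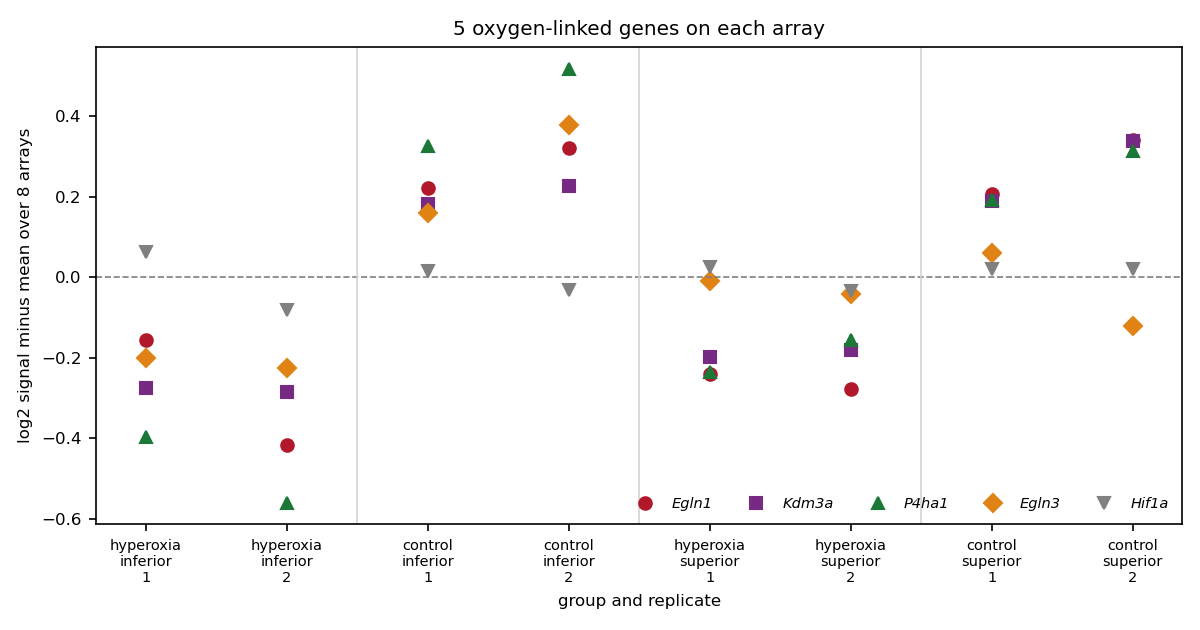
Log2 signal minus each gene's mean over 8 arrays (vertical axis) of 5 genes on each array (horizontal axis, group and replicate). *Egln1*, *Kdm3a* and *P4ha1* lie below 0 on the 4 hyperoxia arrays and above it on the 4 control arrays, while *Hif1a* stays near 0 and *Egln3* is highest in the control inferior group.

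Of 45 measured HIF target genes, which leave out the 9 genes and include *P4ha1* and *Kdm3a*, 13 fell and 0 rose over both regions, against 0.121% of all probe sets called lower. The list was chosen with earlier results of these data known, so its counts are given as a description. In all, 37 of the 45 had a difference below 0. The median was -0.17 over both regions, -0.22 in the inferior retina and -0.11 in the superior, against 0.00, 0.01 and 0.00 for all probe sets. In the inferior retina 5 were called lower, against 0.0624% of all probe sets. In the superior retina 0 were called, against 0.0173% of all probe sets. There 18 were lower and 1 higher at an unadjusted p under 0.05, against 5.59% of all probe sets in either direction. Markers of some neurons were also lower by medians of this order, with 0 called. Of 8 ganglion cell markers 8 were lower over both regions (median -0.17), and of 11 markers of bipolar, amacrine and horizontal cells 10 were (median -0.15). Of 10 rod markers 9 were lower in the inferior retina (median -0.18), and 5 in the superior retina (median 0.0004). Of 9 cone markers 3 were lower and 6 higher over both regions (median 0.02). The part of these cells in the values of the targets was not tested. Relative to each gene's mean, the median of the list lay at -0.12 and -0.11 on the hyperoxia inferior arrays, against 0.15 and 0.13 on the control inferior arrays, and at -0.11 and -0.06 on the hyperoxia superior arrays, against 0.06 and 0.06 on the control superior arrays. Every hyperoxia array thus lay below every control array in the median of the targets.

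*Slc16a3*, the lactate exporter MCT4, was the target with the lowest value after hyperoxia relative to control. Its log2 signal was 8.11 and 7.99 in the hyperoxia inferior group, against 9.68 and 9.53 in the control inferior group. It was 8.45 and 8.31 in the hyperoxia superior group, against 9.23 and 9.45 in the control superior group. It fell by 1.26 over both regions (adjusted p = 0.000375) and by 1.56 in the inferior retina (adjusted p = 0.000931), and these calls were kept with each of the 8 arrays left out in turn. The superior difference was -0.96 (adjusted p = 0.0719). *Slc16a3* was the only one of the 13 whose call over both regions was kept without any 1 array.

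The other called targets included genes of glycolysis. *Pfkl* and *Pfkp*, genes of phosphofructokinase subunits, fell by 0.82 and 0.49 over both regions. *Pfkfb3*, whose enzyme makes an activator of phosphofructokinase, fell by 0.57. *Aldoa* (aldolase) fell by 0.37, *Pgk1* (phosphoglycerate kinase) by 0.44 and *Pgam1* (phosphoglycerate mutase) by 0.60. Other glycolytic genes of the list did not pass: the hexokinase genes *Hk1* and *Hk2* had -0.05 and -0.35, *Aldoc* -0.08, *Tpi1* (triosephosphate isomerase) -0.31 and *Pfkfb4* 0.06. *Pdk1*, a kinase that keeps pyruvate out of the mitochondrion's oxidation, fell by 0.61. Outside metabolism, *Bnip3*, a receptor for the removal of mitochondria, fell by 0.56, *Ddit4*, an inhibitor of mTOR, by 0.44 and *Ankrd37*, an ankyrin repeat gene, by 0.60. Adjusted p-values of these 10 genes that fell ran from 0.00872 for *Pfkfb3* to 0.04999 for *Pfkp*.

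*Bnip3*, as an example of the regions moving together, had log2 signals of 9.77 and 9.77 in the hyperoxia inferior group, against 10.37 and 10.25 in the control inferior group, and 9.67 and 9.85 in the hyperoxia superior group, against 10.26 and 10.41 in the control superior group. *Pdk1* had 7.71 and 7.43 in the hyperoxia inferior group, against 8.42 and 8.36 in the control inferior group, and 7.71 and 7.85 in the hyperoxia superior group, against 8.22 and 8.12 in the control superior group. In both genes every hyperoxia array lay below every control array. *Vegfa*, the vascular growth factor, had a difference of -0.37 (adjusted p = 0.0826) and *Ldha*, lactate dehydrogenase, -0.31 (adjusted p = 0.0749), so neither passed. *Hmox1*, heme oxygenase, which macrophages also express, had 0.34 (adjusted p = 0.246), and *Epo*, erythropoietin, had 0.12 (adjusted p = 0.618). The 13 calls became 5 and 3 when hyperoxia inferior replicate 1 or 2 was omitted, 3 and 6 for hyperoxia superior replicate 1 or 2, 8 and 11 for control inferior replicate 1 or 2, and 4 and 1 for control superior replicate 1 or 2. None passed the methods' t-test after adjustment.

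**Figure D4:**
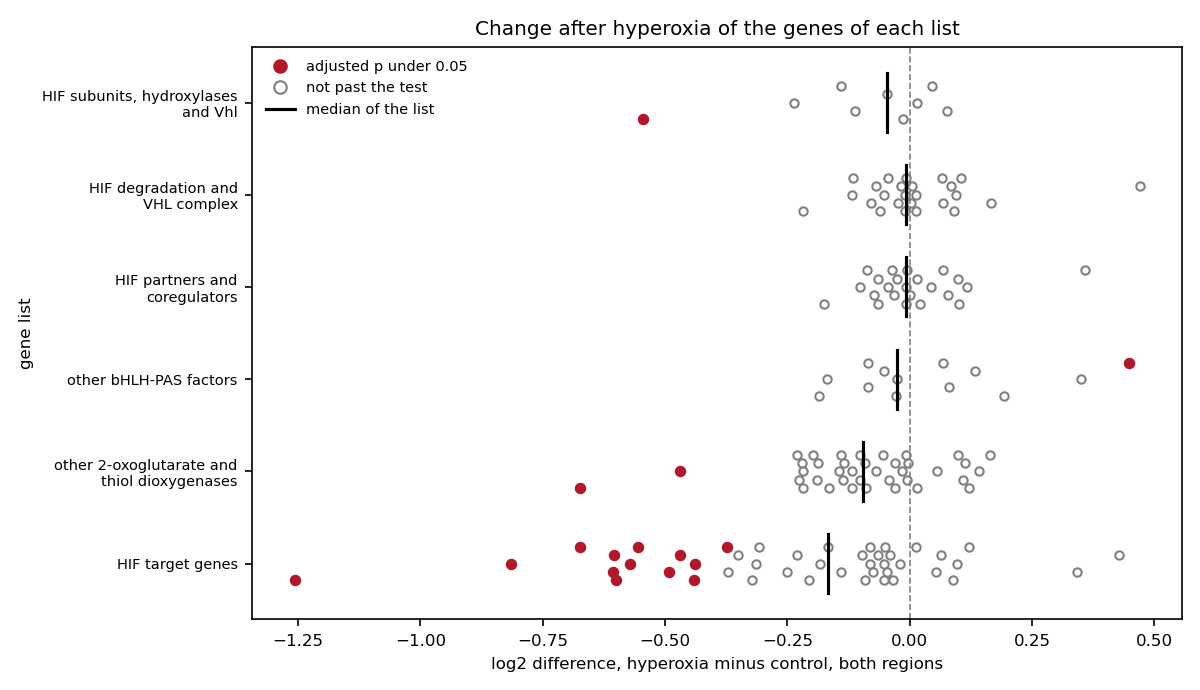
Log2 difference over both regions, hyperoxia minus control (horizontal axis), of each measured gene in 6 gene groups, filled where the adjusted p is under 0.05, with a line at the median. The filled points are *Egln1* in the top group, *Ahr* on the right, *P4ha1* and *Kdm3a* (drawn in both of their groups) and 13 HIF targets that reach from -0.37 to -1.26.

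For the 3 genes of the 9 whose group means ranged most widely, the genes with the most similar profile over the 8 arrays were sought among those with a mean log2 signal of 6 or more. For *Egln1* these were *Trrap*, a scaffold of histone acetyltransferase complexes (Pearson r = 0.97), *Kdm3a* (0.964) and *Ep400*, a chromatin remodeller (0.962), of 13892 genes. The group means of *Trrap* and *Ep400* ranged over only 0.113 and 0.122, against 0.545 for *Kdm3a* and 0.560 for *Egln1*. For *Egln3* they were *Ppl*, which encodes the cell junction protein periplakin (0.943), *Strn*, which encodes the scaffold protein striatin (0.934), and *Pcsk1*, a prohormone convertase (0.927). For *Hif3a* they were *Fzd9*, a Wnt receptor (0.987), *Cblb*, a ubiquitin ligase (0.95), and *Hdgfl2* (0.924), of 13893 genes. These correlations describe 8 arrays that share 4 groups.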

How the data were processed

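The authors deposited log2 values of 8 Affymetrix Mouse Gene 1.0 ST arrays, from Partek, with the background corrected by RMA and probes summarised by median polish. For normalization between arrays and Partek's version, the sources used here give nothing, and the values were used as deposited. Of 28853 probe sets, 21789 have 1 gene symbol in the platform annotation, 1621 several and 5443 none listed. The 21789 cover 19938 genes. Of these probe sets, 21698 carry an Entrez ID found in the RefSeq gene table, with 0 symbols changed. A gene with several probe sets was represented by the one with the highest mean. Genes were named only from 1-symbol probe sets.

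Means of the 4 groups were fitted over all 8 arrays with limma 3.58.1 in R 4.3.3 (lmFit, contrasts, eBayes, two-sided), with 4 residual and 4.47 prior degrees of freedom. The contrasts were hyperoxia against control in each region and over both, inferior against superior in each condition and over both, and the difference of the hyperoxia changes. The fit was tested on simulated data. Array data have no read depth, and the number of arrays limits the precision. The members and the gene lists were chosen with earlier results of these data known. Beside the 9 members, genes were named from each pathway list if past an adjusted p of 0.05 in any comparison, otherwise the 2 with the smallest p over both regions. *Cul2*, *Elob*, *Eloc*, *Arnt2*, *Ep300*, *Crebbp*, *Ado*, *Kdm6a*, *Vegfa*, *Ldha*, *Hmox1*, *Epo*, *Hk1*, *Hk2*, *Aldoc*, *Tpi1* and *Pfkfb4* were named after their values were seen. The members' profiles were set against all genes with a mean log2 value of 6 or more by Pearson r.

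The alternatives were the replicate number as a block, the methods' t-test, eBayes with an intensity trend or a robust prior, quantile normalization, centring on array medians, a mean log2 value of at least 6, testing 1-symbol probe sets alone, fitting a comparison's own arrays alone, and omission of each array.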

Additional observations from a re-analysis of the deposited data

Results flagged for a closer look

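The regional order of 4 genes was opposite in hyperoxia and in control on every array: their inferior values lay below the superior ones after hyperoxia and above them in control. The difference between the regional differences, tested as an interaction with limma, was -0.49 for *Egln3* (unadjusted p = 0.0108, adjusted p = 0.707), -0.45 for *P4ha1* (unadjusted p = 0.0162, adjusted p = 0.782), -0.43 for *Pdk1* (unadjusted p = 0.0262, adjusted p = 0.793) and -0.60 for *Slc16a3* (unadjusted p = 0.00479, adjusted p = 0.643). None passed the adjusted threshold. The pattern was looked for in 27 genes, the 9 and the pathway genes named with them, which were mostly named for their change with exposure, and 5.92% of all probe sets showed it, so the count of 4 is given as a description. Groups of 2 arrays are too small for a test of outlying arrays within a group.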

How the results depend on the processing

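Of 63 differences of the 9 genes over 7 comparisons, 41 were smaller than their own standard error, and 33 of these changed sign under 1 or more of up to 17 alternatives. Of the 22 at or over their standard error, 2 changed sign, both of *Hif3a* and both when an array was left out: the change over both regions ran from -0.29 to 0.0077 and the difference of the regional changes from -0.015 to 0.58. *Hif3a* is the dimmest of the 9 and drops out where a mean log2 value of 6 is required.

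Over both regions, the 1 call among the 9 genes became 0 by the methods' t-test and 0 to 1 with an array left out; the 13 calls among HIF targets became 0 and 1 to 11, and the 2 among dioxygenases became 0 and 0 to 2. In the inferior retina, 0 of the 9 genes were called, against 1 (*Egln1*) with dim probe sets left out and 1 with a variance trend. There the 5 HIF targets became 11 with dim probe sets left out, 8 with 1-symbol probe sets only, 1 with only the arrays of the comparison, 0 by the methods' t-test, 17 with a variance trend and 1 to 5 with an array left out. The 1 dioxygenase there became 2, 2, 0, 0, 2 and 0 to 1 under the same settings. In the superior retina, the 0 HIF targets became 1, 1 and 2 with dim probe sets left out, 1-symbol probe sets only and a variance trend. The replicate numbers were not shown to pair the arrays, since correlations of their deviations ran from -0.0213 to 0.144. With the replicate number as a block, 1 of the 9 genes was called over both regions, and *Egln1* had an adjusted p of 0.0442. Averaging probe sets changed nothing, since each of the 9 genes has 1, and only the arrays of a comparison is the main setting where all 8 take part.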
